A study of Arabidopsis thaliana with 10 samples.

Results

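The trehalose phosphate phosphatases (TPP) of Arabidopsis thaliana are the 10 genes TPPA to TPPJ, and all 10 were found by their locus codes among the 32824 genes of the expression table. Transcripts were measured by RNA-seq in shoots of seedlings grown for 10 days on solid medium with 1% sucrose. The 5 OE libraries came from a transgenic line with the oilseed rape gene BnaC02.TPS8 under the 35S promoter, and the 5 WT libraries came from Col-0 plants without it. Both groups were kept under the condition labelled normal, and the series design describes the nitrogen supply as sufficient. The 35S promoter is viral and drives expression in most plant tissues. The OE samples are titled as line 11 whereas the series design names another line, and only 1 line was sampled, so an effect of the transgene and a property of that line cannot be told apart. Whether the samples of 1 genotype were grown apart from each other is not stated, so that p-values cover the spread among these samples and no more.

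Trehalose is made in plants by a pair of enzymes. A trehalose phosphate synthase (TPS) joins UDP-glucose and glucose 6-phosphate to trehalose 6-phosphate, and a phosphatase of the TPP family then removes the phosphate. Most plants hold only traces of trehalose, and the intermediate is the better studied molecule: trehalose 6-phosphate follows the supply of sucrose and restrains the kinase SnRK1, which is active when energy is short. The phosphatases therefore remove a signal as well as make a sugar.

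Values are FPKM, in which fragments are divided by transcript length and library total, so that levels of different genes can be compared per length. Depth was read from the step that 1 fragment makes in weakly expressed genes and came to 1.83e+07 to 2.33e+07 fragments a library, if fragments were 200 nt long. The shoot markers fixed for this check (RBCS1A, LHCB1.3, LHCB2.1, RCA and GAPA) lay between 1373 and 36023 FPKM in every library. The 6 root markers (COBL9, EXP7, RHD6, CASP1, NRT2.1 and PHT1;1) did not exceed 1.52 FPKM, and the root hair marker COBL9 did not exceed 0.0636 FPKM. Plastid genes made up 0.442% to 2.90% of the summed FPKM in OE libraries and 0.552% to 4.28% in WT libraries, and the shares of OE replicate 4 and WT replicates 2 and 4 were the highest. No row measures the rapeseed transgene by itself, and the values of the Arabidopsis TPS genes may or may not include its fragments.

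The phosphatase genes include 4 pairs of close relatives, with TPPA and TPPD outside them. In each pair but TPPE with TPPH, 1 gene held most of the transcript. Coding sequences were taken from the RefSeq annotation of TAIR10.1, to which all 10 locus codes matched. TPPF and TPPG were identical at 82.7% of aligned bases, TPPE and TPPH at 80.8%, TPPI and TPPJ at 78.9%, and TPPB and TPPC at 75.4%. TPPA was closest to TPPF (69.2%) and TPPD closest to TPPH (66.8%). The lowest identity of any pair was 58.2%, between TPPC and TPPG.

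**Figure D1:**
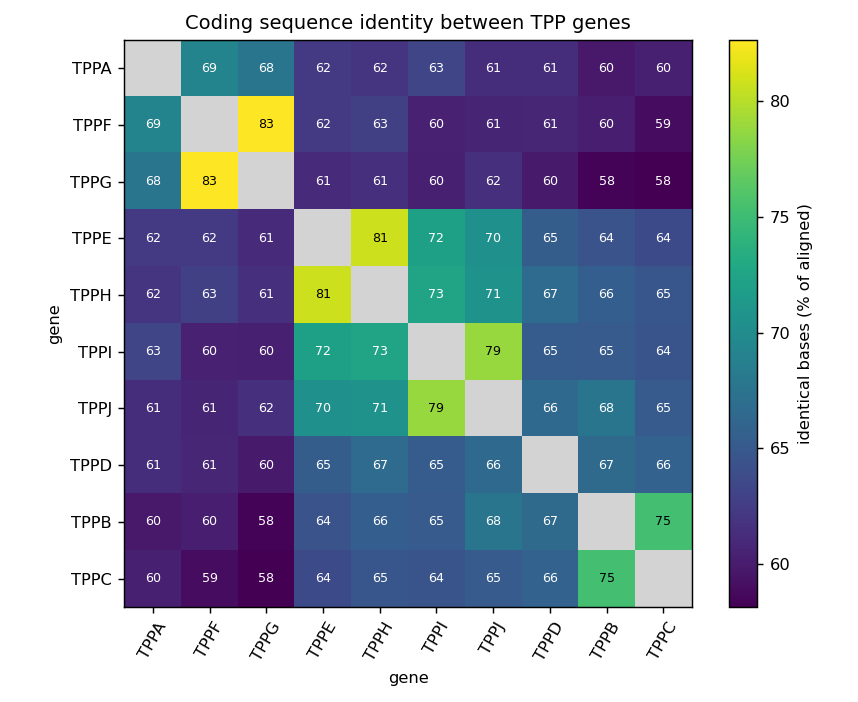
Share of identical bases (percent of aligned bases, colour and number) between the longest coding sequences of each pair of the 10 TPP genes, which name both axes. The pairs TPPF with TPPG, TPPE with TPPH, TPPI with TPPJ and TPPB with TPPC stand out, at 82.7%, 80.8%, 78.9% and 75.4%.

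Few stretches of sequence were shared between the phosphatase transcripts. Of all stretches of 31 bases in the transcripts of TPPB, TPPC, TPPD, TPPE, TPPH and TPPJ, none occurred in another gene of the annotation. TPPF and TPPG shared 3 such stretches with each other, which was 0.173% of those in either gene. TPPI shared 4 with genes outside the family. TPPA shared 40 (1.56%) with AT5G51465, a gene on the opposite strand whose end overlaps that of TPPA by 70 bases. The sources used here do not say that strand was used in counting, so reads in that overlap could belong to either gene.

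TPPA and TPPG were the most abundant phosphatase transcripts. Over all 10 libraries TPPA averaged 20.1 FPKM, TPPG 19.7, TPPH 6.52, TPPE 4.28, TPPJ 3.98, TPPF 2.05, TPPB 1.59, TPPD 0.513 and TPPI 0.159 FPKM, and TPPC was listed at 0 in every library. TPPA was the highest member in 7 libraries and TPPG in OE replicates 4 and 5 and WT replicate 5. The order of these neighbours was therefore not settled, whereas TPPG exceeded TPPH in 9 of 10 libraries and TPPH exceeded TPPE in 9 of 10. TPPE and TPPJ did not differ beyond their spread, with TPPE above TPPJ in 1 of 5 OE libraries and 3 of 5 WT libraries. TPPJ exceeded TPPF, and TPPB exceeded TPPD, in all 10 libraries. TPPF lay above TPPB in 2 of 5 OE libraries and in 5 of 5 WT libraries, and TPPD above TPPI in 5 of 5 OE libraries and 3 of 5 WT libraries.

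Within the pairs of relatives the imbalance had the same direction in nearly every library. TPPG held 5.71 to 17.4 times the FPKM of TPPF in OE libraries and 2.37 to 18.2 times in WT libraries. TPPJ held 22.4 to 92.1 times the FPKM of TPPI in OE and 8.29 to 93.8 times in WT, ratios that rest on a very low level of TPPI. TPPH and TPPE were closer, with ratios of 1.13 to 2.81 in OE and 0.935 to 1.75 in WT. TPPB was above TPPC, which was listed at 0, in all 10 libraries.

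Between OE and WT shoots, none of the phosphatase genes passed the test across all genes. The filter of a mean of at least 1 FPKM kept 7 of the 10 members, TPPA, TPPB, TPPE, TPPF, TPPG, TPPH and TPPJ. Of these 7, 0 passed limma with Benjamini-Hochberg adjustment over the 17713 genes tested at an adjusted p of 0.05, where 2.89% of all genes tested passed. At an unadjusted p under 0.05 there were 3 of the 7, all with a higher mean in OE, where 15.1% of all genes tested reached that level, 9.89% with a higher and 5.26% with a lower mean in OE. The log2 difference was above 0 in 6 of the 7 members with a median of 0.37, against 50.8% of all genes tested and a median of 0.0032. That of TPPF, 1 of the 6, was -0.019 without the 3 libraries of highest plastid share. In bulk shoots, fewer cells of a type and less RNA per cell cannot be told apart.

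TPPB (AT1G78090), one of the first plant phosphatases isolated by its function in yeast, was the only tested member whose groups did not overlap. It stood at 1.87, 1.96, 1.67, 2.66 and 1.83 FPKM in OE libraries 1 to 5 and at 0.667, 1.52, 1.06, 1.15 and 1.499 FPKM in WT libraries 1 to 5. Every OE library lay above every WT library, as in 4.41% of all genes tested, while the reverse held in 1.42%. The means were 2.00 ± 0.384 FPKM in OE and 1.18 ± 0.351 FPKM in WT (SD, n = 5 each), a ratio of 1.69. The log2(FPKM + 1) scale makes changes at such low levels look smaller, and on it the difference was 0.47 (95% interval 0.16 to 0.77; limma adjusted p = 0.111). On the log2(FPKM + 0.1) scale the difference was 0.75, and TPPB did not pass there either (limma adjusted p = 0.129). The values correspond to about 55.4 to 75.9 fragments per library in OE and 19.8 to 47.2 in WT.

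TPPA (AT5G51460), isolated together with TPPB, stood at 16.2, 25.6, 24.0, 28.2 and 22.5 FPKM in OE libraries 1 to 5 and at 13.9, 16.9, 13.9, 20.9 and 18.5 FPKM in WT libraries 1 to 5. In OE, 4 of 5 libraries exceeded the highest WT library, and OE replicate 1 lay below WT replicates 2, 4 and 5. The means were 23.3 ± 4.48 FPKM in OE and 16.8 ± 3.02 FPKM in WT (n = 5 each), a ratio of 1.38. The log2 difference was 0.44 (95% interval 0.11 to 0.77; limma adjusted p = 0.173). AT5G51465, its overlapping neighbour, did not exceed 2.76 FPKM in any library.

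TPPJ (AT5G65140) stood at 5.18, 4.49, 4.20, 5.61 and 3.61 FPKM in OE libraries 1 to 5 and at 3.88, 3.71, 3.79, 2.76 and 2.57 FPKM in WT libraries 1 to 5. OE replicate 5 was the only OE library below the highest WT library, and it lay below WT replicates 1, 2 and 3. The means were 4.62 ± 0.794 FPKM in OE and 3.34 ± 0.625 FPKM in WT (n = 5 each), a ratio of 1.38, and the log2 difference was 0.37 (95% interval 0.09 to 0.66; limma adjusted p = 0.181).

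**Figure D2:**
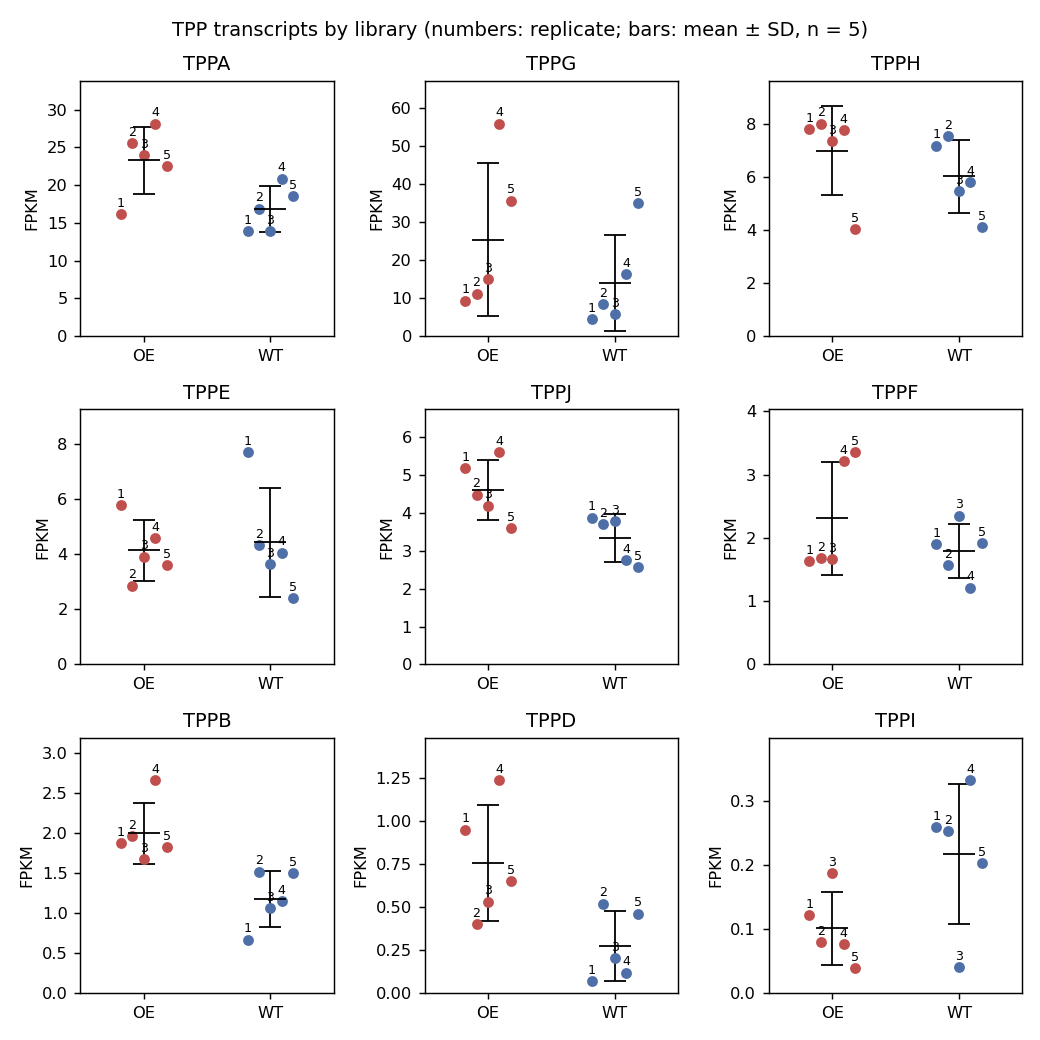
FPKM of the 9 TPP genes with a value above 0, in order of their mean level, in each OE library (left, red) and WT library (right, blue); numbers give the replicate and bars the mean ± SD of 5 libraries. The OE and WT points of TPPB do not overlap. For TPPA and for TPPJ, 4 of 5 OE points lie above all WT points, and 2 of 5 WT points lie below all OE points. TPPG is spread between 9.31 and 55.9 FPKM in OE and between 4.49 and 35.0 FPKM in WT.

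TPPG (AT4G22590) had the widest spread and the largest log2 difference of the 7 tested members. It stood at 9.31, 11.2, 14.9, 55.9 and 35.6 FPKM in OE libraries 1 to 5 and at 4.49, 8.40, 5.76, 16.2 and 35.0 FPKM in WT libraries 1 to 5. OE replicates 4 and 5 and WT replicate 5 were the high libraries, and the groups overlapped. WT replicate 4 lay above WT replicates 1, 2 and 3. At every equal replicate number OE lay above WT, though the values did not establish a pairing by these numbers. The ratio of the means was 1.82, and the log2 difference of 0.85 had an interval of -0.43 to 2.13 (limma adjusted p = 0.543), so that neither no change nor a change of 4-fold lies outside it. Its SD within the groups was 1.08 on the log2(FPKM + 1) scale, larger than that of 99.3% of 3645 genes of like level (mean log2 level within 0.5), whose median was 0.15. Of the high libraries, OE replicate 4 was among the 3 with the most plastid RNA, whereas OE replicate 5 and WT replicate 5 held plastid shares of 1.44% and 0.814%. Without the 3 libraries of highest plastid share (OE replicate 4 and WT replicates 2 and 4) the log2 difference of TPPG was 0.58, and those of TPPA, TPPB and TPPJ were 0.48, 0.47 and 0.29.

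TPPE, known from root growth under abscisic acid, TPPF, known from drought tolerance, and TPPH had differences smaller than the spread between libraries. TPPH (AT4G39770) was measured at 7.01 ± 1.68 FPKM in OE and 6.03 ± 1.39 in WT (log2 0.18, 95% interval -0.23 to 0.59). TPPE (AT2G22190) was measured at 4.14 ± 1.10 FPKM in OE and 4.42 ± 1.98 in WT (log2 -0.03, interval -0.53 to 0.47). TPPF (AT4G12430) was measured at 2.31 ± 0.890 FPKM in OE and 1.79 ± 0.425 in WT (log2 0.22, interval -0.18 to 0.62; SD, n = 5 each). The limma adjusted p-values were 0.708 for TPPH, 0.965 for TPPE and 0.634 for TPPF. The upper ends of the intervals allow rises of 1.502-fold for TPPH, 1.38-fold for TPPE and 1.54-fold for TPPF in FPKM + 1. The lower ends allow falls to 0.854-fold for TPPH, 0.691-fold for TPPE and 0.882-fold for TPPF in FPKM + 1. At such low levels these limits stand for larger changes in FPKM itself. For TPPF the log2 difference came to 0.11 when OE replicate 5 was left out, to 0.12 when OE replicate 4 was and to 0.14 when WT replicate 4 was. The log2 difference of TPPH was 0.34 without OE replicate 5 and 0.07 without WT replicate 5, and that of TPPE ranged from -0.18 without WT replicate 5 to 0.15 without WT replicate 1. A few libraries lay apart from the others in each gene. TPPF was at 3.21 and 3.36 FPKM in OE replicates 4 and 5 and at 1.63 to 1.69 in the other OE libraries. TPPE reached 7.70 FPKM in WT replicate 1. TPPH was lowest in OE replicate 5 and WT replicate 5, at 4.04 and 4.12 FPKM.

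TPPD, TPPI and TPPC lay under the filter. TPPD (AT1G35910), a phosphatase placed in the chloroplast and regulated by oxidation, stood at 0.949, 0.398, 0.531, 1.23 and 0.652 FPKM in OE libraries 1 to 5 and at 0.0701, 0.518, 0.202, 0.118 and 0.460 FPKM in WT libraries 1 to 5. In OE, 4 of 5 libraries lay above the highest WT library. The values correspond to about 11.9 to 33.6 fragments per library in OE and 2.0 to 13.8 in WT, and the ratio of the means was 2.75. In the fit without a filter the log2 difference was 0.45 (95% interval 0.13 to 0.78; limma adjusted p = 0.184).

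TPPI (AT5G10100), which has been studied in stomatal closure and drought, averaged 0.101 ± 0.0565 FPKM in OE and 0.218 ± 0.109 FPKM in WT (n = 5 each). These values rest on about 1.3 to 6.3 fragments per library in OE and 1.3 to 8.9 in WT. The ratio of the means was 0.464. WT replicates 1, 2, 4 and 5, at 0.203 to 0.333 FPKM, lay above the highest OE library, at 0.187 FPKM. WT replicate 3, at 0.0404 FPKM, lay below 4 of the OE libraries. In the fit without a filter the log2 difference was -0.14 (interval -0.29 to 0.00, limma adjusted p = 0.412), which did not pass the threshold. The log2(FPKM + 1) scale makes a difference at such low levels look much smaller than the ratio of the means. Its unadjusted p in the limma fit without a filter was 0.0548, above 0.05 before any adjustment. Whether depth or scale kept TPPI from passing was not tested. TPPC (AT1G22210) was listed at 0 in all 10 libraries. A value of 3 fragments would have been 0.150 FPKM in the shallowest library, which is the limit that a count of 0 allows, for counting error only.

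The summed level of the phosphatases consisted mostly of TPPA and TPPG. The sum of the 10 members was 48.9, 56.2, 58.5, 109 and 75.2 FPKM in OE libraries 1 to 5 and 40.1, 44.7, 36.2, 52.6 and 66.7 FPKM in WT libraries 1 to 5. Of the OE libraries, 2 exceeded the highest WT library. The means were 69.6 ± 24.2 FPKM in OE and 48.1 ± 12.1 FPKM in WT, a ratio of 1.45 that was given no test because the members were chosen with results of these data known. TPPA made up 25.8% to 45.5% of the sum in OE and 27.8% to 39.7% in WT, and TPPG 19.1% to 51.2% in OE and 11.2% to 52.5% in WT. Without TPPG, left out after its spread was seen, the sum was 39.6 to 53.3 FPKM in OE and 30.5 to 36.3 FPKM in WT, a ratio of 1.298, and the groups did not overlap. The groups overlapped in the sum without TPPA, at 30.7 to 81.1 FPKM in OE and 22.3 to 48.2 FPKM in WT, and in the sum without both TPPA and TPPG, likewise chosen afterwards, at 17.1 to 25.1 FPKM in OE and 13.2 to 21.7 FPKM in WT.

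**Figure D3:**
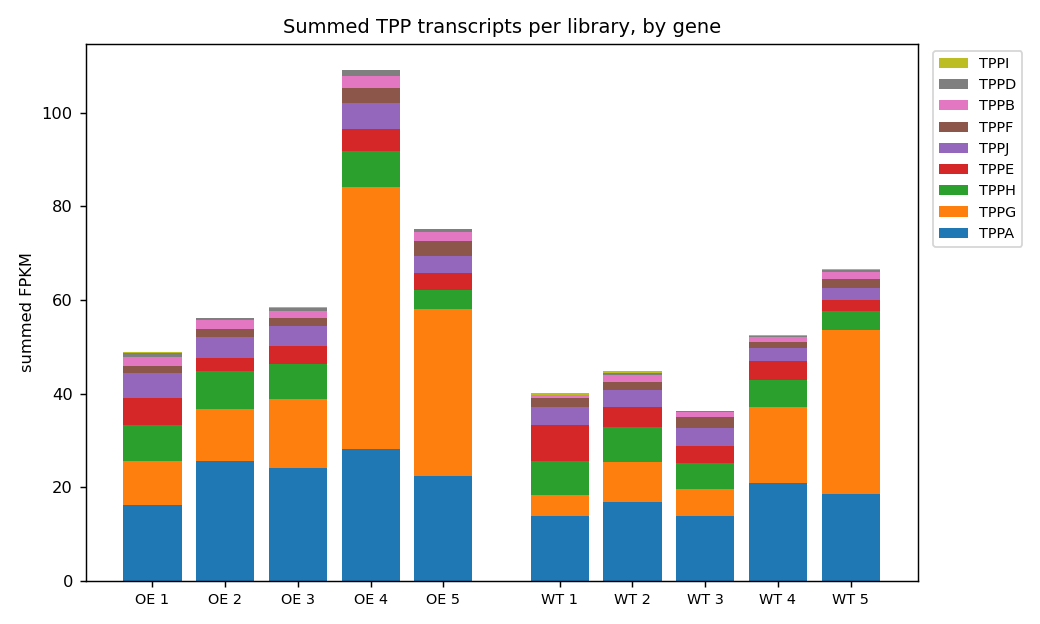
Summed FPKM of the TPP genes in each library (OE left, WT right), with each gene as a coloured part of the bar. The bars range from 48.9 to 109 FPKM in OE and from 36.2 to 66.7 FPKM in WT, and the part of TPPG varies most.

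Among the other genes of the pathway, transcripts of 4 synthase genes of class II fell in OE shoots. The list held 11 synthases and the trehalase, of which 9 genes were tested. Of these, 4 fell in OE and 0 rose, where 0.525% of all genes tested fell and 2.37% rose. The list was chosen with earlier results of these data known, so this count is a description and not a test. Class II proteins have a synthase-like and a phosphatase-like domain and are linked to SnRK1. TPS8, the Arabidopsis relative of the transgene, was measured at 41.9 ± 10.3 FPKM in OE and 83.7 ± 12.5 FPKM in WT (log2 -1.002; limma adjusted p = 0.00978). TPS11, TPS9 and TPS10 had log2 differences of -0.61, -0.61 and -0.51 (limma adjusted p = 0.00776, 0.0268 and 0.0374, n = 5). The other 3 class II genes did not pass, with -0.40 for TPS5, -0.15 for TPS6 and -0.27 for TPS7. In the fit that left out the 3 libraries with the highest plastid share, OE replicate 4 and WT replicates 2 and 4, the adjusted p-values of TPS8, TPS9, TPS10 and TPS11 were 0.161, 0.157, 0.299 and 0.139, with log2 differences of -0.90, -0.65, -0.49 and -0.59. With single libraries left out, TPS9 lost its call in 7 of 10 cases (all but WT replicates 1 and 2 and OE replicate 4; highest adjusted p 0.0731) and TPS10 in 9 of 10 (all but WT replicate 1; highest 0.0956).

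The class I synthase TPS1, the main source of trehalose 6-phosphate, stood at 13.3 ± 1.15 FPKM in OE and 14.0 ± 2.04 FPKM in WT (log2 -0.06, 95% interval -0.28 to 0.16; limma adjusted p = 0.831). TPS2 and TPS3 were listed at 0 throughout, and TPS4 did not exceed 0.0480 FPKM. TRE1, the trehalase that splits trehalose into glucose, stood at 1.17 ± 0.238 FPKM in OE and 1.23 ± 0.270 FPKM in WT (log2 -0.04, interval -0.31 to 0.24; adjusted p = 0.923, n = 5). Summed phosphatase transcripts came to 3.68 to 8.02 times the level of TPS1 in OE libraries and 2.65 to 5.72 times in WT libraries. Set against the summed class II synthases they came to 0.249 to 0.561 in OE and 0.125 to 0.229 in WT, without overlap. The class II sum by itself did not overlap, at 162 to 212 FPKM in OE and 274 to 307 FPKM in WT. The phosphatase sum did overlap, so the separation of this ratio depends on the fall of the synthases. The class II sum and the ratio were given no test, because the lists were chosen with results of these data known.

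**Figure D4:**
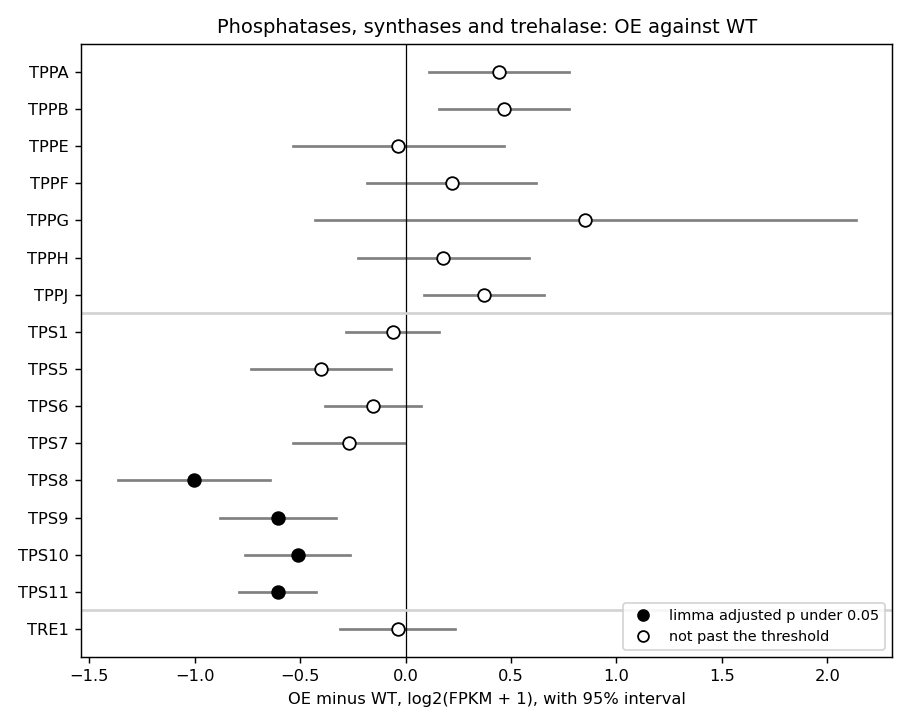
Difference between OE and WT on the log2(FPKM + 1) scale with its 95% interval for the 7 TPP genes tested (top), the 8 TPS genes tested (middle) and TRE1 (bottom); filled points passed limma at an adjusted p of 0.05. TPP points run from -0.03 to 0.85 and none is filled, whereas all TPS points lie below 0 and those of TPS8, TPS9, TPS10 and TPS11 are filled.

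The phosphatase genes did not follow a single pattern across the libraries. OE replicate 4, which had the highest plastid share of the OE libraries (2.90%), was the highest of all libraries for TPPA, TPPB, TPPD, TPPG and TPPJ. WT replicates 2 and 4 had higher plastid shares, 3.98% and 4.28%. They stood at 16.9 and 20.9 FPKM for TPPA, 1.52 and 1.15 for TPPB and 0.518 and 0.118 for TPPD. For TPPG they stood at 8.40 and 16.2 FPKM, and for TPPJ at 3.71 and 2.76 FPKM. A link to plastid share was not tested. Without OE replicate 4 the log2 differences were 0.37 for TPPA, 0.39 for TPPB, 0.31 for TPPJ and 0.49 for TPPG. That of TPPG was 1.26 without WT replicate 5. WT replicate 1 was the lowest of all libraries for TPPA, TPPB, TPPD and TPPG and the highest for TPPE. Among genes of like level, the SD within the groups was larger than that of 87.0% for TPPA, 91.4% for TPPE, 89.3% for TPPH and 76.5% for TPPF, against 45.0% for TPPB and 55.2% for TPPJ.

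**Figure D5:**
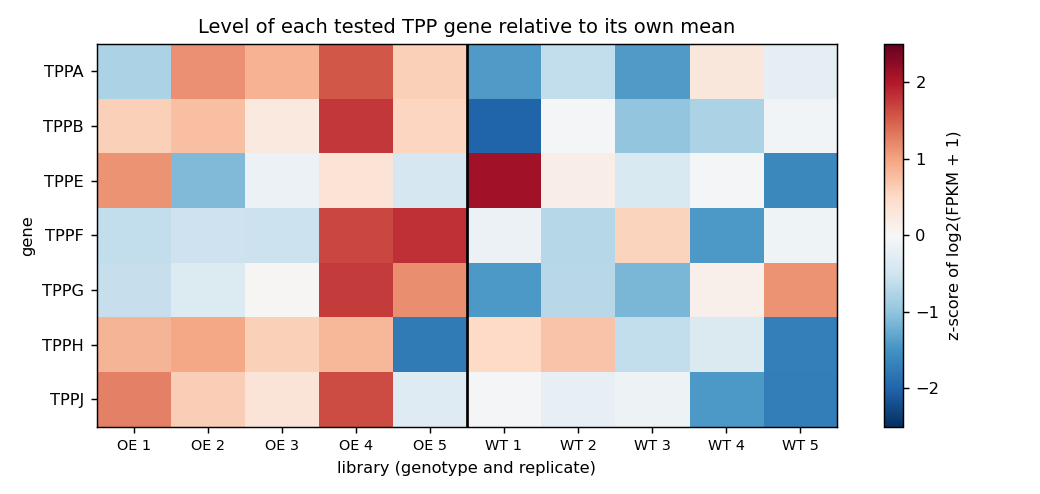
Level of each of the 7 tested TPP genes (rows) in the 5 OE and 5 WT libraries (columns), as the z-score of log2(FPKM + 1) over the 10 libraries; red is above and blue below the gene's own mean. OE replicate 4 is red in every row, and TPPH and TPPG differ in replicate 5 of both genotypes, where TPPG is high and TPPH low.

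The genes with the most similar profile were sought for TPPA, TPPG and TPPH, the most abundant members, and for TPPB and TPPJ, which had an unadjusted p under 0.05. Likeness was the root-mean-square distance between z-scored log2(FPKM + 1) profiles over the 10 libraries, for which the median over 17706 other genes was 1.31 to 1.38. Such z-scores keep the shape of a profile and drop the size of its changes. For example, TPPG ran from 4.49 to 55.9 FPKM, whereas its nearest gene FBL17 ran only from 12.9 to 19.9 FPKM. TPPG lay closest to FBL17 (AT3G54650; distance 0.214), an F-box protein of the cell cycle, then to AT1G67480 (0.234) and to AT1G69960, annotated as PP2A (0.240), and 69 genes lay within 0.4. TPPH lay closest to FUG1 (AT1G17220; 0.238), a translation initiation factor of the chloroplast, to MCM3 (AT5G46280; 0.286), part of the DNA replication helicase, and to AT5G02860 (0.297).

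TPPA lay closest to NOA1 (AT3G47450; distance 0.274), AT5G02530 (0.282) and HB1 (AT2G16060; 0.309), a non-symbiotic haemoglobin. TPPJ lay closest to YLMG1-1 (AT3G07430; 0.323), HIT3 (AT3G56490; 0.337) and SKIP3 (AT2G02350; 0.381). TPPB had no gene within 0.4, and its nearest were SPL4 (AT1G53160; 0.416), RTFL16 (AT3G25717; 0.420) and AT4G04223 (0.422). Over so few libraries, small distances also arise between genes without any link, and they describe these 10 libraries only.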

How the data were processed

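RNA-seq libraries of 10 shoot samples, 5 OE and 5 WT, were grouped by their titles. The authors deposited 1 table of FPKM per gene and library, per the name of the table. The submitters' processing notes name kallisto 043.1 and sleuth, with Trimmomatic 0.36 and FastQC, under R 3.5.1, without roles. The genome build is not given in the sources used here. No value was rescaled for the main comparison.

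The genotypes were compared with limma 3.58.1 (R 4.3.3) on log2(FPKM + 1) over all 17713 genes with a mean of at least 1 FPKM over the 10 libraries, with the genotype as the only term, moderated variances with a trend, two-sided p-values and Benjamini-Hochberg adjustment. The fit was tested on simulated data. Depth (1.83e+07 to 2.33e+07 fragments) was estimated from the smallest values of single-transcript genes, 800 nt or longer. Transcripts, stretches of 31 bases and coding alignments came from RefSeq TAIR10.1 with Biopython 1.88; no coordinates are given, since the build behind the values is not known. The members and lists were chosen with earlier results of these data known. Named were all members, all genes of the trehalose list, and the 3 genes of most like profile for the 3 most abundant members and those with an unadjusted p under 0.05. Alternatives were other pseudocounts, filters, normalizations and variance models, a replicate block, organelle genes left out and libraries left out. Figures were drawn with matplotlib 3.10.9.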

Additional observations from a re-analysis of the deposited data

Results flagged for a closer look

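Among 40 groups of 5 libraries examined for a single library far from the others (each gene of the pathway with a value above 0 and the summed phosphatases, in each genotype), 3 stood out, where chance flags about 1 group in 20. TPPH in OE replicate 5 stood at 4.04 FPKM, below the 7.35 to 8.03 FPKM of the other OE libraries; without that library the log2 difference was 0.34 (limma adjusted p = 0.308). TPS6 in OE replicate 1 stood at 17.4 FPKM, below the other OE libraries. TPS4 in OE replicate 2 stood at 0.0201 FPKM while the other OE libraries were listed at 0. Any single value above 0 among values of 0 is flagged by this rule, so the flag of TPS4 carries no information.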

How the results depend on the processing

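In 20 of 21 alternatives the number of phosphatase genes past the threshold stayed at 0. With the replicate number as a block it was 1, TPPA (log2 0.44; limma adjusted p = 0.0382), where 3.34% of all genes tested rose. The values did not establish a pairing by equal numbers, with correlations of -0.09 to 0.20 over the 5 pairs, 2 of them (replicates 1 and 5) over 0.1, and 4 of 10 samples closest to their own number. Over the other alternatives the adjusted p of TPPA was at least 0.0528, and the lowest were 0.0916 for TPPB, 0.124 for TPPJ and 0.311 for TPPG (0.0893 with the block).

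The count over all genes, 512, was 781 with the replicate block, 0 in limma with the 3 libraries of highest plastid share left out (1854 at an unadjusted p under 0.05, of the phosphatases TPPA and TPPB), and 204 to 534 with single libraries left out (204 without OE replicate 2, 271 without OE replicate 4, 293 without WT replicate 2 and 278 without WT replicate 5). The summed ratio of 1.45 was 1.24 to 1.60 with single libraries left out and 1.213 to 1.483 otherwise. The sign turned for 4 genes that did not pass: TPPF (0.22) to -0.019 and TPS1 to 0.015 without the 3 libraries, and, over single libraries left out, TPPE (-0.18 to 0.15), TPS1 (-0.12 to 0.0028) and TRE1 (-0.097 to 0.0155). TPS10 missed the threshold with no filter and no trend (limma adjusted p = 0.0585 and 0.0521). The cause of these changes was not tested.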
